A study of Homo sapiens with 2 samples.

Results

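The aldehyde, alcohol and aldo-keto dehydrogenases described here are enzymes that move hydride between a cofactor and an alcohol, aldehyde or ketone. Members were all genes whose symbol begins with ALDH, AKR1, AKR7, ADH and a digit, HSD11B, HSD17B, RDH and a digit, or DHRS and a digit, apart from 3 genes that the rule leaves out. This gave 69 genes on 133 probe sets, of 19775 genes on 41091 probe sets that named 1 gene each. The 69 comprised 20 ALDH, 8 AKR1, 2 AKR7, 7 ADH, 4 HSD11B, 10 HSD17B, 7 RDH and 11 DHRS genes, and 6 of them were antisense RNA genes or pseudogenes. The rule reads symbols alone, although the families were picked with earlier results of these data known.

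The series compared 2 samples of Huh7, a long-established line of human liver cancer (hepatocellular carcinoma) cells, grown in serum-supplemented medium. In one, CD24, a cell surface glycoprotein, was knocked down by a hairpin RNA (shRNA) stably introduced with a lentivirus, and the other received a non-target hairpin by the same route as control. Both samples were therefore transduced cells, each hybridised to 1 Affymetrix array, and the labels do not say whether either was a pool or 1 clone. With 1 array in each group no difference has a replicate check, no test between groups exists and no p-value is given. The deposited log2 values are centred within each probe set, so the control and CD24 shRNA values are equal and opposite. The table holds no expression level, and genes cannot be ranked by abundance. Each value below is the log2 difference, CD24 shRNA minus control, as the mean over the probe sets of a gene. A ± value is the SD over those probe sets, so it reflects disagreement among probe sets and carries no information on how cultures vary. Between probe sets of 1 member gene the pooled SD was 0.25 (35 genes with several probe sets, 99 probe sets). CD24 itself was lower on all 6 of its probe sets (-1.37 ± 0.38, SD), which ranged from -1.97 to -0.95.

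In the liver these families work in sequence and in opposition. Alcohol dehydrogenases (ADH) oxidise ethanol, retinol and other alcohols to aldehydes, and aldehyde dehydrogenases (ALDH) oxidise the aldehydes to acids. Aldo-keto reductases (AKR) use NADPH to reduce aldehydes and ketosteroids back to alcohols, and several of them are known targets of the oxidative stress factor NRF2. The HSD11B, HSD17B, RDH and DHRS enzymes are short-chain dehydrogenases, which set the balance between active and inactive steroids and between retinol and retinal. Hepatocytes are rich in many of these enzymes, and AKR1B10 is known for its high expression in hepatocellular carcinoma.

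Across the 69 genes, 7 were at least 1.5-fold lower with CD24 shRNA and 2 at least 1.5-fold higher, which is 10.1% and 2.90% of members. Over all genes on the array the same shares were 2.38% lower and 2.63% higher. The 7 lower genes were AKR1C3, HSD17B2, RDH12, ADH6, AKR1C1, AKR1B10 and ADH1A, and the higher genes were AKR1D1 and ADH1C. At 2-fold, AKR1C3 and HSD17B2 were lower and no member was higher, against a background of 0.485% lower and 0.632% higher. The share of lower members at 1.5-fold thus lay above the background and the share of higher members near it. That split moved with the scaling of the arrays: with the arrays scaled on 9 hybridisation control probe sets, whose mean difference was -0.08, 4 members were lower and 4 higher at 1.5-fold, against 1.71% and 3.63% of all genes. Without the probe sets whose names end in _s_at or _x_at, which can match several transcripts, 4 of 54 members were lower and 4 higher (7.41% each), against 2.53% and 2.47% of all genes, so the excess was no longer on the lower side alone. The median over all members was -0.09, against 0 over all genes, with 43 genes below 0 (62.3%, against 47.5% of all genes), 25 above and 1 at 0. After the same scaling 37 lay below 0 and 32 above. That scaling raises every gene on the array by the same amount, so the gap between the member and all-gene medians is unchanged. Counts on each side of 0 after it, here and below, have no all-gene share beside them. Just inside the 1.5-fold limit lay ADH1A at -0.59 and AKR1B10 at -0.61, and just outside it HSD17B8 at -0.57 and DHRS2 at 0.57.

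**Figure D1:**
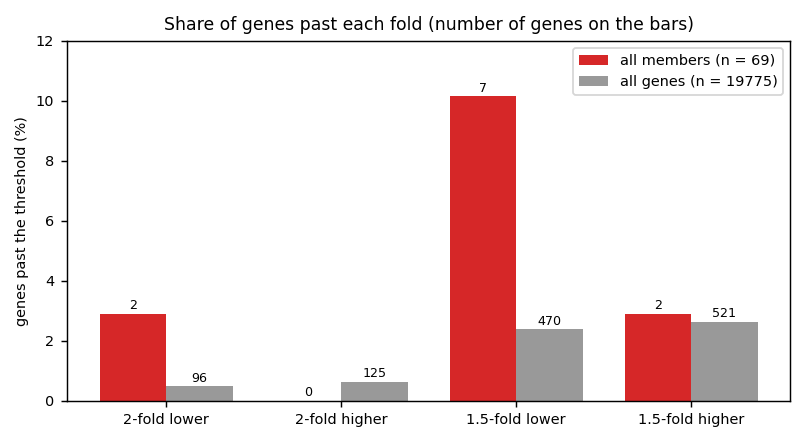
Share of genes past 2-fold and 1.5-fold in each direction, in percent, for the 69 members (red) and all 19775 genes (grey), with the number of genes on each bar. The bars for 1.5-fold lower stand apart most, at 7 members (10.1%) against 470 genes (2.38%).

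The AKR1C genes lie side by side on chromosome 10 and include close copies, so their windows around the gene start are shown first. The windows run from 250 bases before to 50 after the RefSeq start (GRCh38.p14): chr10:4963165-4963464, plus strand, for AKR1C1; chr10:5003808-5004107, minus strand, for AKR1C2; and chr10:5048531-5048830, plus strand, for AKR1C3, the first of 2 windows listed for that gene. In the sequences that follow, capitals mark bases that differ between the 3 windows, or face a gap, within the stretch that all 3 cover. The ends that overhang this stretch are in lower case and were not compared across all 3.
AKR1C1: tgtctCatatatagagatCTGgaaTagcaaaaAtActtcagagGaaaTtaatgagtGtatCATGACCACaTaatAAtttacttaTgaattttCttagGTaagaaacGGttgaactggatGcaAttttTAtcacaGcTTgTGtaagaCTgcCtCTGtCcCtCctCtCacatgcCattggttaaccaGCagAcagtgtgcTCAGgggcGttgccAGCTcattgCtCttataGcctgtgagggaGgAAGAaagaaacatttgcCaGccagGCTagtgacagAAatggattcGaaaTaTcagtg
AKR1C2: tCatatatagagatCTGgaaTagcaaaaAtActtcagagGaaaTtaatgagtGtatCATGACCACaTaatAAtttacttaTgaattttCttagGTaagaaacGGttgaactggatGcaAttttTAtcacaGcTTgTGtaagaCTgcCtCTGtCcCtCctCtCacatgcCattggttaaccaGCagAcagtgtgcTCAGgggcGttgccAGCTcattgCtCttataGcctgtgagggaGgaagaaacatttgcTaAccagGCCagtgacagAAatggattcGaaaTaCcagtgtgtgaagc
AKR1C3: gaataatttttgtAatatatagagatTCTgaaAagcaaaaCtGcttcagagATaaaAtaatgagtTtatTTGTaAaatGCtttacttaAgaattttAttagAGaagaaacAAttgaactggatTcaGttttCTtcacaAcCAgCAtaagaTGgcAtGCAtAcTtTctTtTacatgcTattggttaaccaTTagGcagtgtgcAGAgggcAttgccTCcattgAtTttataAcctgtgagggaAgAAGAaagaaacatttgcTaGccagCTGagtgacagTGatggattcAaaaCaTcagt
AKR1C1 and AKR1C2 were identical at 288 of 292 aligned bases (98.6%), and AKR1C3 matched AKR1C1 at 224 of 291 (77.0%). The copies are thus almost the same around the start of AKR1C1 and AKR1C2. Probe sets of closely related genes can share signal, but most of each window lies before the gene start. The identity of the windows therefore does not show such sharing, and the transcripts were not compared.

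AKR1C3, which reduces ketosteroids and prostaglandins, had the largest difference of all 69 genes. Its single probe set read 0.60 in the control and -0.60 in the CD24 shRNA array, a difference of -1.20, or 2.30-fold lower. AKR1C1, which inactivates progesterone, was lower at -0.66 ± 0.46 (SD, 5 probe sets), but its probe sets were spread widely. They read -1.15, -0.92, -0.84, -0.40 and 0, so 4 were lower and 1 was tied between the arrays. The dimmer value of the -1.15 and the -0.40 probe set was placed below 4 on the log2 scale by the digits of the file, near the background. AKR1C2, which inactivates dihydrotestosterone, had a mean of -0.53 ± 0.61 (SD, 3 probe sets). A pair of its probe sets, both of the kind whose names end in _x_at and that can match several transcripts, read -0.88 each, and the third read 0.18. Without probe sets ending in _s_at or _x_at, AKR1C2 was therefore at 0.18 and AKR1C1 at -0.58, just short of 1.5-fold. That AKR1C1 value is only the mean of the -1.15 probe set, placed near the background, and the tied one. AKR1C4, the liver member that acts on bile acid precursors, differed by only -0.11 on 1 probe set. The neighbouring AKR1E2 lay at 0.01 ± 0.12 (SD, 3 probe sets) and the pseudogene AKR1C6P was tied.

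**Figure D2:**
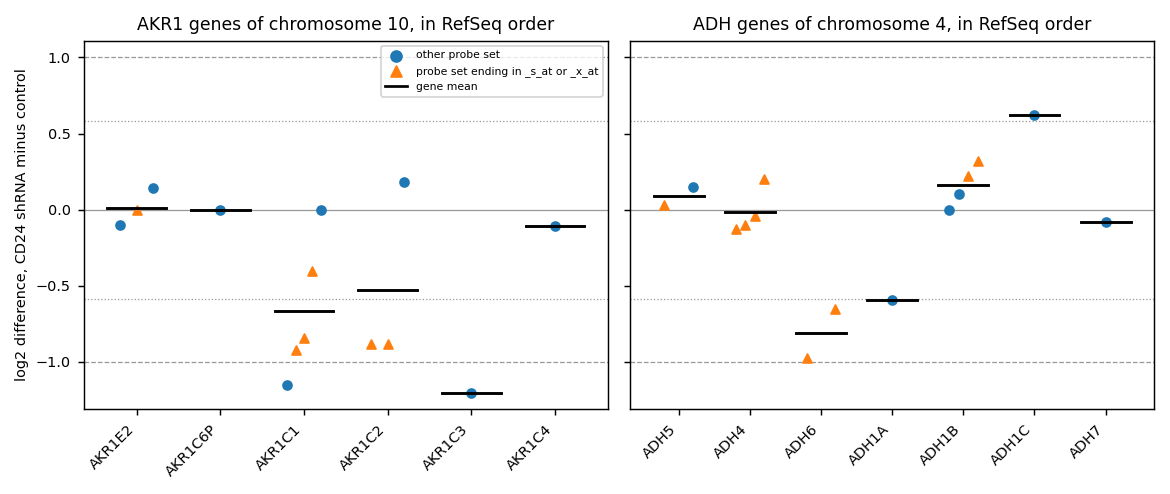
Log2 difference, CD24 shRNA minus control, of each probe set (points; triangles are those named _s_at or _x_at) and of the gene mean (black bars) for the AKR1 genes of chromosome 10 and the ADH genes of chromosome 4, in RefSeq order; dotted lines are 1.5-fold and dashed lines 2-fold. In the AKR1 cluster AKR1C1, AKR1C2 and AKR1C3 are lower, while AKR1E2 and AKR1C4 lie near 0; in the ADH cluster ADH6 and ADH1A are lower and ADH1C is higher.

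Elsewhere in the AKR1 family the differences went in opposite directions. AKR1B10, which reduces retinal and other aldehydes, read 0.31 in the control and -0.31 in the CD24 shRNA array, a difference of -0.61 or 1.53-fold lower, on 1 probe set with a name ending in _s_at. AKR1D1 is the reductase that shapes the steroid ring in bile acid synthesis. It was the highest of the 69 genes, at -0.44 in the control and 0.44 in the CD24 shRNA array, a difference of 0.89 or 1.85-fold higher. In the whole AKR1 family 5 genes lay below 0, 2 above and 1 at 0, with a median of -0.32, and 3 of 8 were at least 1.5-fold lower, against the 2.38% background. After scaling on the hybridisation controls AKR1C3 was the 1 gene of the family past 1.5-fold on the lower side, and AKR1C1 lay just short of the limit. Without probe sets ending in _s_at or _x_at, 3 of 7 genes of the family lay below 0 and 3 above, with a median of 0. There 1 was at least 1.5-fold lower and 1 higher, against 2.53% and 2.47% of all genes. The AKR7 aldehyde reductases had the smallest differences of any family: AKR7A2 read -0.10 on both of its probe sets, and AKR7A3 read 0.03 and -0.04.

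The alcohol dehydrogenases form 1 cluster on chromosome 4, and neighbouring, closely related copies had differences of opposite sign. The 3 class I genes, the main ethanol oxidisers of the liver, are shown because their starts are similar in sequence while their differences were not. The RefSeq windows (GRCh38.p14) are chr4:99290936-99291235, minus strand, for ADH1A; chr4:99321352-99321651, minus strand, for ADH1B; and chr4:99352697-99352996, minus strand, for ADH1C. Capitals again mark bases that differ or face a gap within the stretch that all 3 windows cover, and the overhanging ends are in lower case.
ADH1A: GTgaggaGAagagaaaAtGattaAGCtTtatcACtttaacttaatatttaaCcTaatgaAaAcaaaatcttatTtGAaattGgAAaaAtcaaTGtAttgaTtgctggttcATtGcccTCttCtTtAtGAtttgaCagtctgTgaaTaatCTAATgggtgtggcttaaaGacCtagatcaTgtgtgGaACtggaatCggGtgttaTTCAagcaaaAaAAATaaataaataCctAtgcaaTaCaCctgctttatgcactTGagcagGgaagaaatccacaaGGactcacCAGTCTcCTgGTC
ADH1B: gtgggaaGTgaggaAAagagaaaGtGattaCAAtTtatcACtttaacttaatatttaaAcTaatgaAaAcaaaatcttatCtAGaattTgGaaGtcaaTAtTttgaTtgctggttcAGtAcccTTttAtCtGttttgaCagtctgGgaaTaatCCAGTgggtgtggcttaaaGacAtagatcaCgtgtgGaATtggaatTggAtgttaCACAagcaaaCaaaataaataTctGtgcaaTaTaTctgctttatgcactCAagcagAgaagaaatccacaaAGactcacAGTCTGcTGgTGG
ADH1C: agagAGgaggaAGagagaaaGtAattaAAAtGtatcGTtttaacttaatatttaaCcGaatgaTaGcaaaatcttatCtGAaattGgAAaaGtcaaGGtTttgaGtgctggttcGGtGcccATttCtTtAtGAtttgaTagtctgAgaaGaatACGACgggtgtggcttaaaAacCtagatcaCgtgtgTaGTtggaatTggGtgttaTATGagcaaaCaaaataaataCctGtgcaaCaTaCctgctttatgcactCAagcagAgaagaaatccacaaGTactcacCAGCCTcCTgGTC
Between pairs of these windows 80.8% to 83.8% of aligned bases were identical, and 217 of 293 positions (74.1%) were the same in all 3.

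ADH1A was 1.51-fold lower and ADH1C 1.54-fold higher. On 1 probe set each, ADH1A read 0.30 in the control and -0.30 in the CD24 shRNA array (difference -0.59), and ADH1C read -0.31 and 0.31 (difference 0.62). ADH1B lay between them at 0.16 ± 0.14 (SD, 4 probe sets), with probe sets at 0.32, 0.22, 0.10 and 0. Cross-hybridisation between these copies was not tested. ADH6, a less studied liver alcohol dehydrogenase, was 1.76-fold lower (-0.81 ± 0.22, SD), on 2 probe sets at -0.97 and -0.66, both with names ending in _s_at. The other 3 lay within 0.1 of 0. They were ADH4, a liver enzyme that also takes retinol (-0.02 ± 0.15, SD, 4 probe sets), ADH5, the glutathione-dependent formaldehyde dehydrogenase (0.09 ± 0.08, SD, 2 probe sets), and ADH7, the stomach enzyme (-0.08, 1 probe set). Family-wide, 4 genes lay below 0 and 3 above, with a median of -0.02, and after scaling on the hybridisation controls 3 lay below and 4 above.

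None of the 20 ALDH genes passed 1.5-fold, against 2.38% of all genes lower and 2.63% higher, shares at which few of 20 would pass. Of the 20, 13 lay below 0 (65%, against 47.5% of all genes) and 7 above. The median was -0.10, close to the -0.09 of all members. The 5 lowest lay between -0.41 and -0.33. ALDH8A1, which acts in kynurenine breakdown, lay at -0.41 (1 probe set). ALDH18A1, the first enzyme of proline synthesis, read -0.38 on both of its probe sets. ALDH7A1, of lysine breakdown, lay at -0.36 ± 0.19 (SD, 3 probe sets), ALDH4A1, of proline breakdown, at -0.35 ± 0.03 (SD, 2 probe sets), and ALDH6A1, of valine breakdown, at -0.33 ± 0.17 (SD, 5 probe sets, all below 0). Of the 5 ALDH6A1 probe sets 4 end in _s_at or _x_at, and without them the gene lay at -0.08. The highest was ALDH5A1, which clears succinic semialdehyde in the breakdown of GABA, at 0.53 ± 0.20 (SD, 2 probe sets at 0.67 and 0.39). It alone of the family passed 1.5-fold after scaling on the hybridisation controls.

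Enzymes of ethanol and retinal oxidation in the ALDH family lay on both sides of 0. ALDH2, the mitochondrial acetaldehyde dehydrogenase, lay at 0.24 on 1 probe set, and its mitochondrial relative ALDH1B1 at -0.23 ± 0.04 (SD, 2 probe sets). ALDH1A2 and ALDH1A3, which make retinoic acid, lay at 0.30 ± 0.35 and 0.17 ± 0.04 (SD, 2 probe sets each). The ALDH1A2 probe sets disagreed, at 0.55 and 0.05. ALDH9A1, which acts in carnitine synthesis, lay at -0.29, ALDH3A1 at -0.21 and ALDH16A1 at -0.11, each on 1 probe set. ALDH1L1, ALDH1L2, ALDH3A2, ALDH3B1 and ALDH3B2 lay within 0.1 of 0. The first pair act on formyl folate and the others oxidise mainly fatty and aromatic aldehydes. The antisense genes ALDH1A2-AS1 and ALDH1L1-AS2 lay at 0.36 and -0.29, the first placed near the background.

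**Figure D3:**
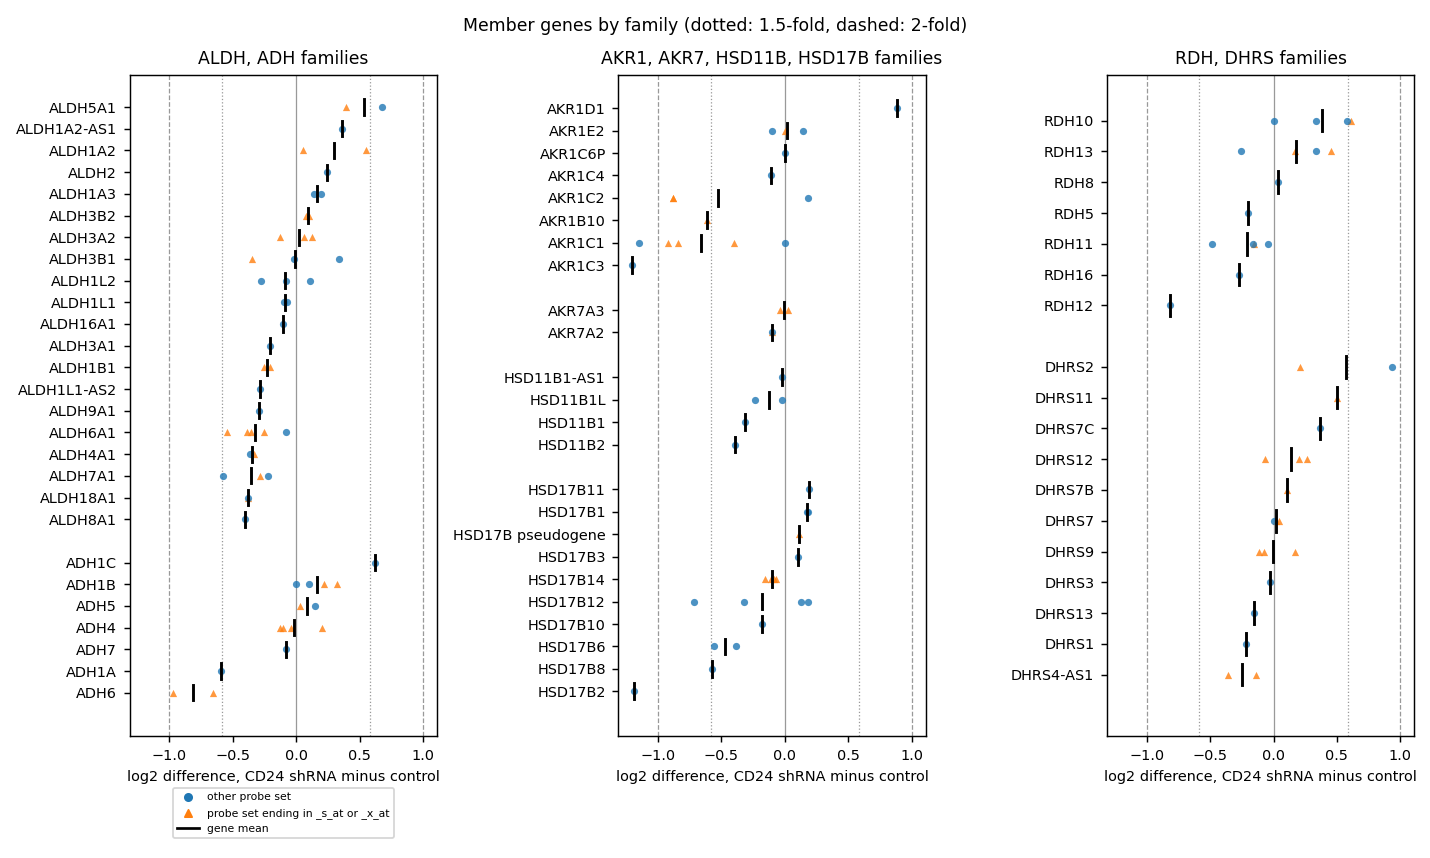
Log2 difference, CD24 shRNA minus control, for all 69 member genes, sorted within each family; points are probe sets (triangles: those named _s_at or _x_at), black bars gene means, dotted lines 1.5-fold and dashed lines 2-fold. AKR1C3 (-1.20) and HSD17B2 (-1.19) lie beyond 2-fold lower and AKR1D1 (0.89) is the highest. No ALDH or DHRS gene mean passes 1.5-fold, which 2.38% of all genes pass on the lower side and 2.63% on the higher.

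Among the steroid dehydrogenases HSD17B2 stood lowest. HSD17B2 oxidises estradiol and testosterone to their less active ketosteroids. Its single probe set read 0.59 in the control and -0.59 in the CD24 shRNA array, a difference of -1.19, or 2.28-fold lower. It was the only one of the 10 HSD17B genes past 1.5-fold (10%, against 2.38% of all genes on the lower side). HSD17B8, a subunit of the mitochondrial fatty acid synthesis reductase, followed at -0.57 on 1 probe set. HSD17B6, an oxidoreductase of androgen metabolites, lay at -0.47 ± 0.12 (SD, 2 probe sets, both below 0). HSD17B12, the ketoacyl reductase of long-chain fatty acid elongation, had a mean of -0.18 ± 0.42 (SD, 4 probe sets) that hid a wide split. Its probe sets read -0.72, -0.32, 0.13 and 0.18, and both positive ones were placed near the background.

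The other HSD17B genes had means between -0.18 and 0.19. HSD17B10, of isoleucine breakdown, lay at -0.18 and HSD17B14 at -0.11 ± 0.04 (SD, 4 probe sets). HSD17B11, a lipid droplet protein, HSD17B1, which makes estradiol, and HSD17B3, the testis enzyme that makes testosterone, lay at 0.19, 0.18 and 0.10. A pseudogene of the family lay at 0.11 near the background. HSD11B1, which regenerates cortisol in the liver, lay at -0.31 on 1 probe set placed near the background. HSD11B2, which inactivates cortisol, lay at -0.39 on 1 probe set. HSD11B1L lay at -0.13 ± 0.15 (SD, 2 probe sets) and HSD11B1-AS1 at -0.02. All 4 HSD11B genes lay below 0, against 47.5% of all genes, and none by 1.5-fold, against 2.38%. HSD11B1-AS1 was also placed near the background, and after scaling on the hybridisation controls it lay above 0. Without probe sets placed near the background, 2 of the 4 genes keep a value. The enzyme that regenerates cortisol and the one that inactivates it were thus both on the lower side, the first only near the background.

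In the retinol dehydrogenases RDH12 and RDH10 lay at opposite ends. RDH12, a retinal reductase known from photoreceptors, read 0.41 in the control and -0.41 in the CD24 shRNA array on its single probe set, a difference of -0.82 or 1.76-fold lower. RDH10, which oxidises retinol towards retinoic acid, lay at 0.38 ± 0.28 (SD, 4 probe sets), with 3 of them above 0, at 0.61, 0.58 and 0.33, and 1 tied. RDH11, a retinal reductase, lay at -0.21 ± 0.19 (SD, 4 probe sets, all below 0), RDH16 at -0.27 and RDH5 at -0.20 (1 probe set each). RDH13, a mitochondrial member, lay at 0.17 ± 0.31 (SD, 4 probe sets) and RDH8, a photoreceptor enzyme, at 0.04 near the background. The family was therefore mixed, with 4 genes below 0 and 3 above.

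The DHRS genes were centred on 0, with a median of 0.02, 5 genes below and 6 above. With scaling on the hybridisation controls, which raises all genes alike, 3 lay below and 8 above. DHRS2, a short-chain reductase of mitochondria and nucleus, had the highest mean, 0.57 ± 0.52 (SD, 2 probe sets), but its probe sets read 0.94 and 0.20. The 0.20 came from a probe set ending in _s_at, so that without such probe sets DHRS2 lay at 0.94. DHRS11, which reduces ketosteroids, lay at 0.50 and DHRS7C, a protein of muscle sarcoplasmic reticulum, at 0.36, on 1 probe set each. DHRS3, which reduces retinal and so limits retinoic acid, lay at -0.03 on 1 probe set. DHRS7 and DHRS9 also lay within 0.1 of 0, and DHRS12, DHRS7B, DHRS13, DHRS1 and the antisense gene DHRS4-AS1 between -0.25 and 0.13.

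Because several AKR genes are known NRF2 targets, the member windows were searched for the core of the antioxidant response element, TGACNNNGC, on both strands. Of the 69 genes 51 had a RefSeq window. The letters were present in 5 of the 51 (9.80%) against 4384 of 27305 genes in the table (16.1%), counting a gene if any of its windows held them. Among the 4 genes at least 1.5-fold lower that had a window, AKR1C1, AKR1C3, ADH6 and ADH1A, none held them. The looser form TGANNNNGC was present in 3 of these 4, in 23 of the 51 members (45.1%) and in 47.1% of all genes. These counts describe letters in a short window and say nothing of distant elements or of binding.

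Partner genes of the same pathways were then read on the same scale. The NRF2 list outside these families had 21 measured genes, which were NRF2 targets together with NFE2L2, the gene of NRF2 itself, and KEAP1. Of the 21, 17 lay below 0 (81.0%, median -0.08), against 47.5% of all genes. At 1.5-fold 3 were lower (14.3%, against 2.38% of all genes) and 2 higher (9.52%, against 2.63%). NQO1, a quinone reductase, lay at -1.03 ± 0.13 (SD, 3 probe sets), SRXN1, sulfiredoxin, at -0.71, HMOX1, heme oxygenase, at 0.72 and EPHX1, microsomal epoxide hydrolase, at 1.01 (1 probe set each). After scaling on the hybridisation controls, which raises all genes alike, 11 of the 21 lay below 0. Without probe sets ending in _s_at or _x_at, where NQO1 has no value, 2 of 18 were lower and 2 higher. That is 11.1% each, against 2.53% and 2.47% of all genes. The 4 largest differences among the NRF2 partners thus lay on both sides of 0, and the next largest were lower. SLC7A11, the remaining gene counted as lower, lay at -0.68 ± 0.79 (SD, 3 probe sets between -1.19 and 0.22). It lay at -1.14 without probe sets ending in _s_at or _x_at. GCLM lay at -0.50 ± 0.33 (SD, 3 probe sets) and ABCC2 at -0.49 (1 probe set).

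Of 12 measured partners in alcohol and aldehyde metabolism, 2 were at least 1.5-fold lower (16.7%, against 2.38% of all genes) and none higher (median -0.06). That lower count was 1 (8.33%, against 1.71% of all genes) after scaling on the hybridisation controls. It was 0 of 10, against 2.53% of all genes, without probe sets ending in _s_at or _x_at. There ACSS2 has no value and CAT lay at -0.57. ACSS2, which turns acetate into acetyl-CoA, lay at -1.05 on 1 probe set and catalase, CAT, at -0.63 ± 0.25 (SD, 3 probe sets, all below 0). The next largest were MAOA, monoamine oxidase A, at -0.39 ± 0.10 (SD, 3 probe sets) and ESD, a formylglutathione hydrolase, at -0.37 ± 0.18 (SD, 5 probe sets). CAT and ACSS2 act before and after ALDH2 in ethanol breakdown, and ALDH2 lay at 0.24 on 1 probe set. Other genes of this metabolism did not share the lower values of CAT and ACSS2. The class I ADH genes, the main ethanol oxidisers, lay on both sides of 0, and the partners CYP2E1 and ACSS1 lay at -0.04 and 0.01.

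Of 13 retinoid handling genes and receptors 1 was at least 1.5-fold higher (7.69%, against 2.63% of all genes). None was lower, against 2.38% of all genes, and the median was 0. The higher gene was CYP26A1, which degrades retinoic acid, at 0.89 on 1 probe set. RARB, a retinoic acid receptor, lay at 0.33 ± 0.52 (SD, 5 probe sets), RBP4, the plasma retinol carrier, at -0.32 ± 0.21 (SD, 2 probe sets) and CRABP2, a retinoic acid binding protein, at -0.25. Beside them, members that act on retinoids lay on both sides of 0. ALDH1A2 lay at 0.30 (probe sets at 0.55 and 0.05) and ALDH1A3 at 0.17, with 1 probe set placed near the background. RDH10 (0.38), RDH13 (0.17) and RDH8 (0.04, near the background) were also above 0. RDH11, RDH16, RDH5 and RDH12 were below, as were AKR1B10 (-0.61) and DHRS3 (-0.03).

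None of 14 steroid and bile acid partners passed 1.5-fold (median 0), against 2.38% of all genes lower and 2.63% higher. HSD3B1, a steroid dehydrogenase isomerase, lay at -0.47 ± 0.54, SULT2A1, a steroid sulfotransferase, at 0.46 ± 0.17 (SD, 2 probe sets each), STS, steroid sulfatase, at 0.38 ± 0.46 (SD, 4 probe sets) and SRD5A1, a steroid reductase, at 0.22 ± 0.17 (SD, 3 probe sets). HSD17B2, AKR1C3 and AKR1D1 had larger differences than every measured gene of that list. They have the largest differences of all members, so this outcome was largely fixed by their choice. It draws no contrast between steroid enzymes and their partners. Of 12 amino acid and folate partners none passed 1.5-fold either (median -0.08), against the same shares of all genes. PYCR1, of proline synthesis downstream of ALDH18A1, lay at -0.43 and ABAT, the GABA transaminase upstream of ALDH5A1, at -0.39 ± 0.29 (SD, 3 probe sets), opposite in sign to ALDH5A1. OAT and AADAT lay at 0.25 and 0.21.

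Of 19 other short-chain dehydrogenases and related enzymes 1 was at least 1.5-fold lower and 1 higher (median -0.04). That is 5.26% each, against 2.38% of all genes lower and 2.63% higher. HPGD, which inactivates prostaglandins, was 2.07-fold higher (1.05 ± 0.17, SD) on 4 probe sets between 0.88 and 1.27, all with names ending in _s_at or _x_at, while AKR1C3, which makes a prostaglandin F isomer, was lower. TECR, the last enzyme of long-chain fatty acid elongation, lay at -0.67 ± 0.22 (SD, 2 probe sets), CBR1, a carbonyl reductase, at -0.47 and WWOX at -0.36 ± 0.16 (SD, 5 probe sets). Of 10 measured genes of liver cell identity 8 lay below 0 (median -0.19), against 47.5% of all genes, and 7 after scaling on the hybridisation controls. The largest differences were AHSG at -0.94 ± 0.13 and FABP1 at -0.64 ± 0.04 (SD, 2 probe sets each), TF at -0.45 ± 0.30 (SD, 4 probe sets) and, on the higher side, TTR at 0.40 (1 probe set). ALB lay at -0.11 ± 0.42 (SD, 4 probe sets between -0.66 and 0.37), APOA1 at -0.05, APOB at -0.09 and AFP at 0.08. The part of these liver genes in the lower values of ADH6, ADH1A and HSD17B2 was not tested, and with no levels in the table the liver identity of the line could not be checked against its markers.

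**Figure D4:**
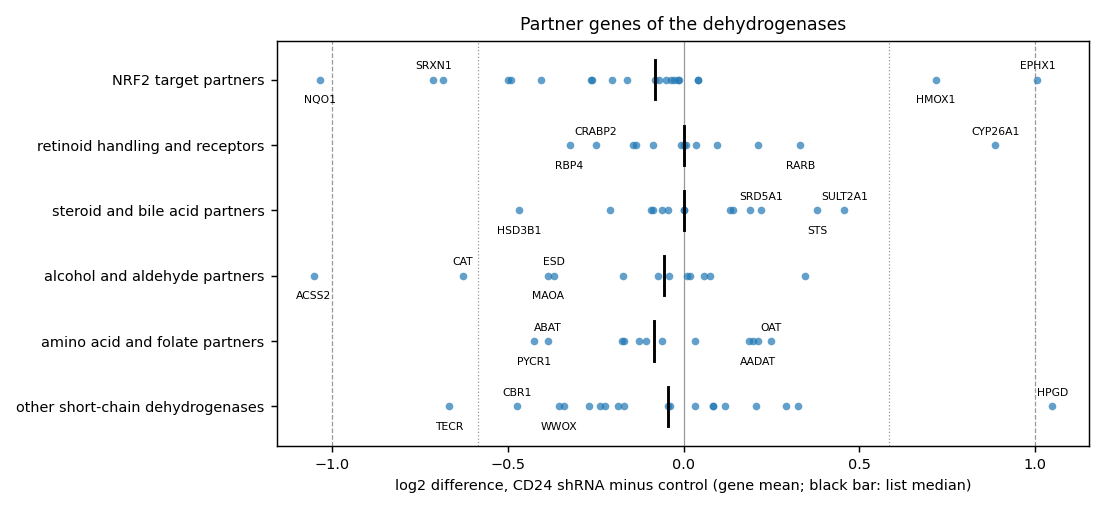
Log2 difference, CD24 shRNA minus control, of the partner genes (points are gene means, black bars list medians); the 4 genes with the largest difference in each list are named, dotted lines are 1.5-fold and dashed lines 2-fold. NQO1 (-1.03) and ACSS2 (-1.05) lie beyond 2-fold lower, EPHX1 (1.01) and HPGD (1.05) beyond 2-fold higher, and the medians of the lists drawn lie between -0.08 and 0; the liver cell identity list is not drawn.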

How the data were processed

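Total RNA of 2 Huh7 samples was extracted with Trizol and labelled with biotin, per the labels. The deposited table holds log2 values from RMA (robust multi-array average), per the submitters' processing notes; its software and version are not stated. In the deposited table the 2 log2 values of each probe set sum to 0 within 1e-06, so it keeps only the difference between the arrays.

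Of 54675 probe sets, 41091 name 1 gene in GEO's platform annotation, 1801 several and 11721 none here; 62 controls were left out. All 69 member Entrez IDs were found in RefSeq (GRCh38.p14). Probe sets were averaged per gene, and genes were counted at 2-fold and 1.5-fold. A probe set was placed near the background where its digits are too fine for single-precision numbers of 4 or more on the log2 scale (22 of 133 member probe sets, 10547 of 41091 in all; others are missed), and 6 member probe sets were tied.

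Named were all members past 1.5-fold, the ends of each family, genes near 0 in groups and the remaining members with their values. Of each partner list at least the 4 largest were named. Members and lists were chosen with earlier results of these data known. Windows were aligned with MAFFT 7.526. Calculations used Python 3.11.15 and were tested on simulated data. Protein identity, listed in the design, was not computed. Having 1 array per group limits the precision.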

Additional observations from a re-analysis of the deposited data

How the results depend on the processing

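The alternatives were the median over probe sets, the probe set with the largest difference, leaving out probe sets ending in _s_at or _x_at, leaving out those placed below 4, scaling on the hybridisation controls, centring on the median over all genes, and a 3-fold threshold. The count of members at least 2-fold lower, 2, became 0 at 3-fold, a limit that 0.086% of all genes passed on the lower side. It was 3 (4.35%, against 1.06% of all genes) with the largest probe set and stayed at 2 in the other settings. The 7 members at least 1.5-fold lower became 4 of 54 (7.41%, against 2.53% of all genes) without _s_at and _x_at probe sets, where AKR1B10 and ADH6 have no value and AKR1C1 is just short, and 4 of 69 (5.80%, against 1.71%) with scaling on the hybridisation controls. Without probe sets placed below 4 they were 7 of 63 (11.1%, against 2.87%). They were 8 (11.6%, against 2.44%) with the median over probe sets and 9 (13.0%, against 5.55%) with the largest probe set. The 2 members at least 1.5-fold higher became 5 (7.25%, against 5.70%) with the largest probe set, 4 (7.41%, against 2.47%) without _s_at and _x_at probe sets and 4 (5.80%, against 3.63%) with scaling on the hybridisation controls. The median difference of members, -0.09, ran from -0.11 to -0.01 and kept its sign under these alternatives other than the threshold. No gene past 1.5-fold by the mean over its probe sets changed sign in any setting where it had a value. AKR1C2 was not past 1.5-fold by the mean. It lay at -0.88 by the median over probe sets and at 0.18 without _s_at and _x_at probe sets. The letters TGACNNNGC were in the windows of 5 member genes and TGANNNNGC in those of 23. No leave-one-out value exists with 1 array in each group. No paired analysis was possible because each group has 1 array. Depth does not apply, and signal over background could be read only in part.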
